A study of Gossypium hirsutum with 7 samples.

Results

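Peroxidase and glutathione transferase genes were followed in cotton ovules on the day of flowering, in plants in which the homeodomain gene GhHD-1 was silenced or over-expressed. The members are the probe sets whose single annotated gene carries the name pod7, POX5, peroxidase or GST in the RefSeq gene table. The rule found 9 of the 23977 cotton probe sets on the array, from 6 of the 520 genes that the annotation ties to a probe set of 1 gene. They are 1 probe set for pod7 (gene LOC107936187), 2 for POX5 (LOC107914564), 1 for each of 2 genes named peroxidase (LOC107905931 and LOC107951876, the latter also named pox), 3 for a first GST gene (LOC107889738) and 1 for a second (LOC107948407).

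Total RNA of whole ovules of Gossypium hirsutum, whose polyploid genome holds most genes in an A and a D copy, was hybridised at 0 days post anthesis to a 1-colour Affymetrix cotton array, with 1 sample on each array. There were 2 arrays of wild type, 2 of GhHD-1 silenced ovules and 3 of GhHD-1 over-expression ovules, which the labels call biological replicates. GhHD-1 is a homeodomain factor, and the comparison asks which genes it may regulate as fibre cells start to grow from the ovule surface. The sources used here do not give the cultivar, the promoters of the transgenes or the number of independent transgenic plants behind each group. Where replicates share plants or a transgenic event, the p-values measure only the spread between these samples.

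Peroxidases of the plant-specific class III are secreted haem enzymes of large families. They use hydrogen peroxide to couple phenolic compounds and proteins in the cell wall, which stiffens it, and can also produce reactive oxygen that loosens it. Glutathione transferases join the thiol glutathione to reactive or toxic molecules, reduce some organic peroxides and can carry flavonoids towards the vacuole. In cotton, hydrogen peroxide has been linked to the start and the elongation of fibres, which are single cells of the ovule epidermis. The names used here come from the annotation, and no more is known from it about the role of each single gene.

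The values are log2 intensities as deposited, so a difference of 1 is a factor of 2 in signal. The arrays had medians between 7.61 and 7.72, and 5% of the probe sets of an array lay below 3.50 to 3.67, so values of that size stand at the floor. The wild-type arrays correlated less with each other (r = 0.981 across probe sets) than the silenced arrays did (r = 0.997). Each was closer to transgenic arrays than to the other. Wild-type replicate 1 had r = 0.987 and 0.986 with the silenced arrays. Wild-type replicate 2 had r = 0.991 and 0.992 with over-expression replicates 1 and 3. A single reporter control probe set, 1 of 52, read 5.09 and 11.88 on the wild-type arrays and 9.73 and 9.84 on the silenced arrays. It read 5.91, 8.59 and 8.81 on the over-expression arrays, and the other reporter controls are not shown. All directions against wild type rest on these arrays as labelled. Of the tissue markers, fibre and epidermis genes were present, with 5 of 10 listed names annotated. The mean of their 6 probe sets was between 9.27 and 10.05 on the 7 arrays. HD1 was listed but matched no probe set by name, so the level of GhHD-1 itself was not checked here. The polygalacturonase probe set G9, listed for pollen, read 3.67 to 4.46, and no name of the 11 listed for ovule identity or the 4 for photosynthesis was annotated. Of 9 embryo names 1 matched, through a synonym of an S-adenosylmethionine synthetase.

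Of the 9 member probe sets, 3 had a mean of at least 6 (pod7, the peroxidase probe set Ghi.1039.1.S1_s_at and the GST probe set Ghi.8056.1.S1_s_at). The other 6 were dimmer, and the GST probe sets Ghi.1016.1.S1_s_at and Ghi.1016.4.A1_s_at lay below the 5% level on all 7 arrays. Intensities of different probe sets are not compared with one another, since each has its own response.

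**Figure D1:**
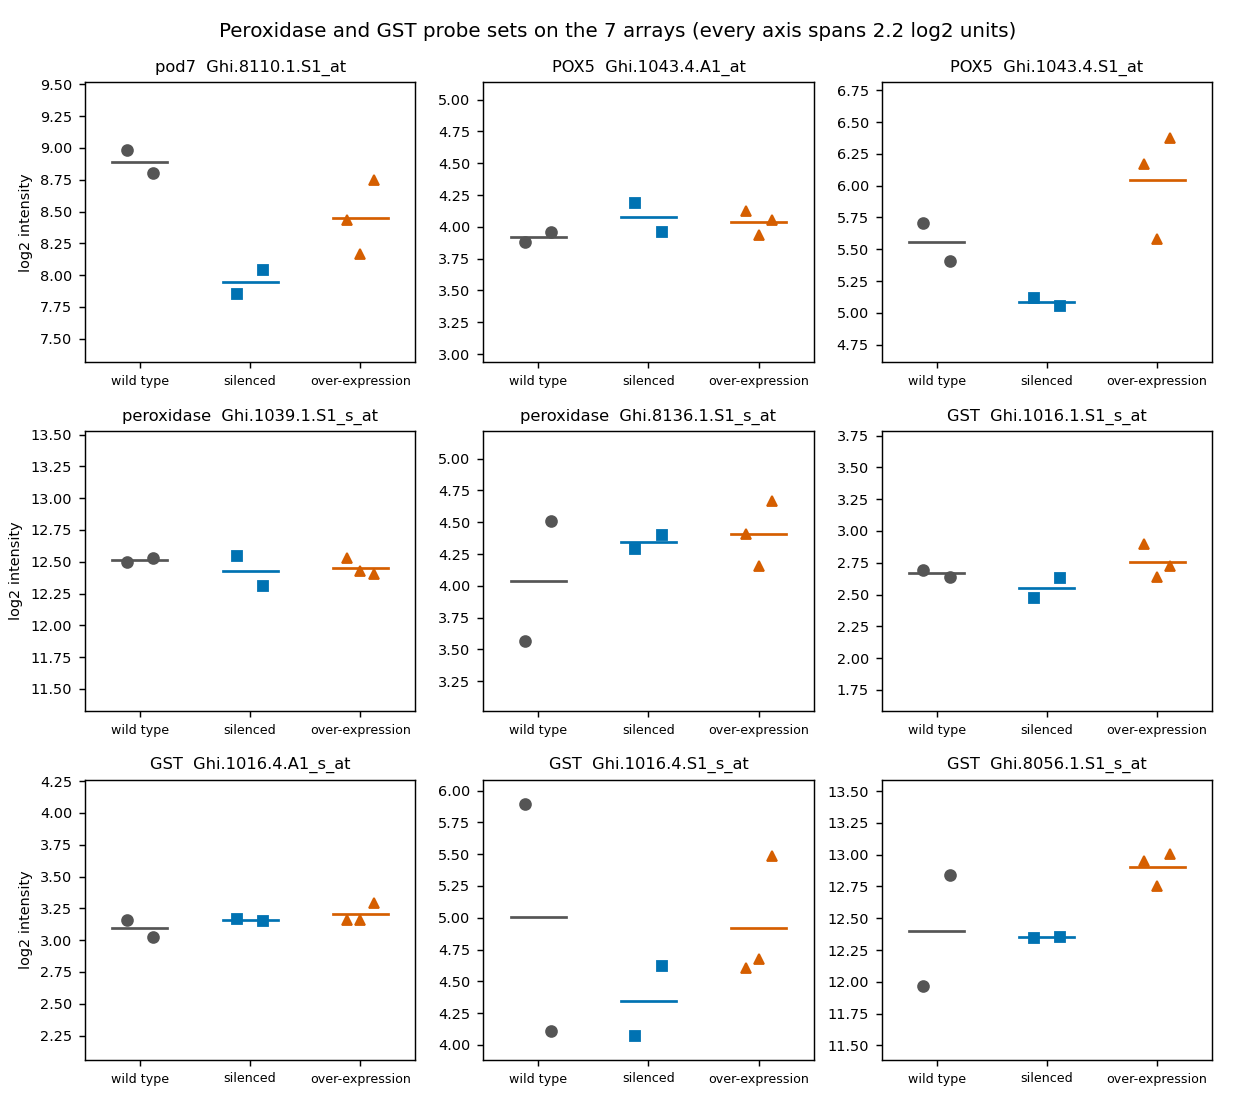
Log2 intensity of the 9 member probe sets (vertical axis, every panel to the same scale) in wild-type, silenced and over-expression ovules (horizontal axis). Each symbol is 1 array and each bar a group mean; the 3 groups are apart only for pod7, and the wild-type pair is wide for Ghi.8136.1.S1_s_at, Ghi.1016.4.S1_s_at and Ghi.8056.1.S1_s_at.

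No member passed the test in any of the 3 comparisons. With limma and Benjamini-Hochberg adjustment over all probe sets, 0 of 9 members had an adjusted p under 0.05 between silenced and wild type, where 0% of all probe sets were called. The count was 0 of 9 between over-expression and wild type, where 0.00417% were called, and 0 of 9 between over-expression and silenced, where 0.0209% were called. At an unadjusted p under 0.05 the counts of members were 1, 1 and 2, beside 14.5%, 10.4% and 12.1% of all probe sets. All differences below are therefore values with their error, none of which was called. The median difference of the members was -0.09, 0.11 and 0.20 in the 3 comparisons, beside 0.02, 0.02 and 0.01 for all probe sets. The comparisons share arrays, so they are not independent of each other.

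The peroxidase gene pod7 was the member with the lowest p against wild type. Its values were 8.98 and 8.80 in wild type, 7.85 and 8.04 in silenced ovules, and 8.43, 8.17 and 8.75 in over-expression ovules. Both silenced arrays were the lowest of all, both wild-type arrays the highest, and the over-expression arrays lay between them with no overlap. No pair of groups overlapped in 5.72% of all probe sets. The order of pod7, silenced below over-expression below wild type with no array out of place, was found in 1.46% of them. Silenced ovules stood at 7.94 ± 0.13 (SD, n = 2) and wild type at 8.89 ± 0.13 (SD, n = 2), a log2 difference of -0.95 (SE 0.20, 95% interval -1.42 to -0.48). That is 1.93-fold less signal, with a limma adjusted p of 0.159 and rank 305 of 23977 by p.

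In over-expression ovules pod7 stood at 8.45 ± 0.29 (SD, n = 3), a difference of -0.44 from wild type (SE 0.18, 95% interval -0.87 to -0.01, limma adjusted p = 0.472). The nearest over-expression and wild-type arrays, 8.75 and 8.80, were 0.05 apart. From silenced to over-expression the difference was 0.50 (SE 0.18, 95% interval 0.08 to 0.93, limma adjusted p = 0.332). So this gene had values below wild type in both transgenic groups, with the larger difference in the silenced one. Leaving out 1 array at a time gave -1.04 to -0.85 for silenced minus wild type and -0.59 to -0.30 for over-expression minus wild type.

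POX5, another gene with a peroxidase name among the members, had its lowest values in silenced and its highest in over-expression ovules. On probe set Ghi.1043.4.S1_at it read 5.70 and 5.41 in wild type, 5.11 and 5.05 in silenced ovules, and 6.17, 5.58 and 6.37 in over-expression ovules. The silenced arrays were below all others, and over-expression replicate 2 fell inside the wild-type range. All silenced arrays lay below and all over-expression arrays above the wild-type mean, as did those of 3.81% of all probe sets. Among the members GST Ghi.8056.1.S1_s_at did so too, with wild-type arrays as far apart as 11.97 and 12.84. Between the transgenic groups the POX5 means were 6.04 ± 0.41 (SD, n = 3) and 5.08 ± 0.05 (SD, n = 2). The difference of 0.96 (SE 0.23, 95% interval 0.41 to 1.51) is 1.94-fold, with a limma adjusted p of 0.197 and rank 544 of 23977 by p.

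Against wild type, at 5.56 ± 0.21 (SD, n = 2), the POX5 differences were smaller. They were -0.47 for silenced (SE 0.26, limma adjusted p = 0.436) and 0.48 for over-expression (SE 0.23, limma adjusted p = 0.499). Leaving out wild-type replicate 1 gave -0.33 for silenced and 0.63 for over-expression, and leaving out replicate 2 of wild type gave -0.62 and 0.34. The over-expression difference was 0.32 without over-expression replicate 3 and 0.71 without over-expression replicate 2. Between over-expression and silenced, leaving out over-expression replicate 2 gave 1.19 (limma adjusted p = 0.0720) and leaving out replicate 3 gave 0.79. The mean of the fibre and epidermis markers ordered the arrays otherwise than POX5, with r = 0.603 between that mean and this probe set over the 7 arrays. The marker mean was 10.01 and 10.05 on over-expression replicates 1 and 3 but 9.27 on replicate 2, 9.44 and 9.38 on the silenced arrays, and 9.31 and 10.03 on the wild-type arrays. Single markers were unlike one another. HOX3, 1 of those averaged, had r = 0.856 with this probe set. The silenced means of E6, the expansin EXPA1 and HOX3 were 9.77, 8.18 and 10.00, against 10.40, 8.93 and 10.38 in wild type. Those of myb109 and the LTP3 probe sets were 6.32, 12.32 and 9.89, against 6.23, 12.21 and 9.85. In whole ovules, fewer fibre cells and less RNA per cell cannot be told apart, and the part of the markers in the POX5 result was not tested.

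The second POX5 probe set, Ghi.1043.4.A1_at, did not show this pattern. It read 3.88 and 3.96 in wild type, 4.19 and 3.96 in silenced, and 4.12, 3.94 and 4.05 in over-expression ovules, all within 0.30 of each other and close to the floor. The groups overlapped, and its differences were 0.15, 0.12 and -0.04 in the 3 comparisons (limma adjusted p from 0.612 to 0.943). Both probe sets are tied to the same sequence record. The letters A1 and S1 in their names refer, on Affymetrix arrays, to the orientation of the target. Across the 7 arrays they correlated at r = 0.103, so the POX5 pattern rests on 1 of its 2 probe sets.

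**Figure D2:**
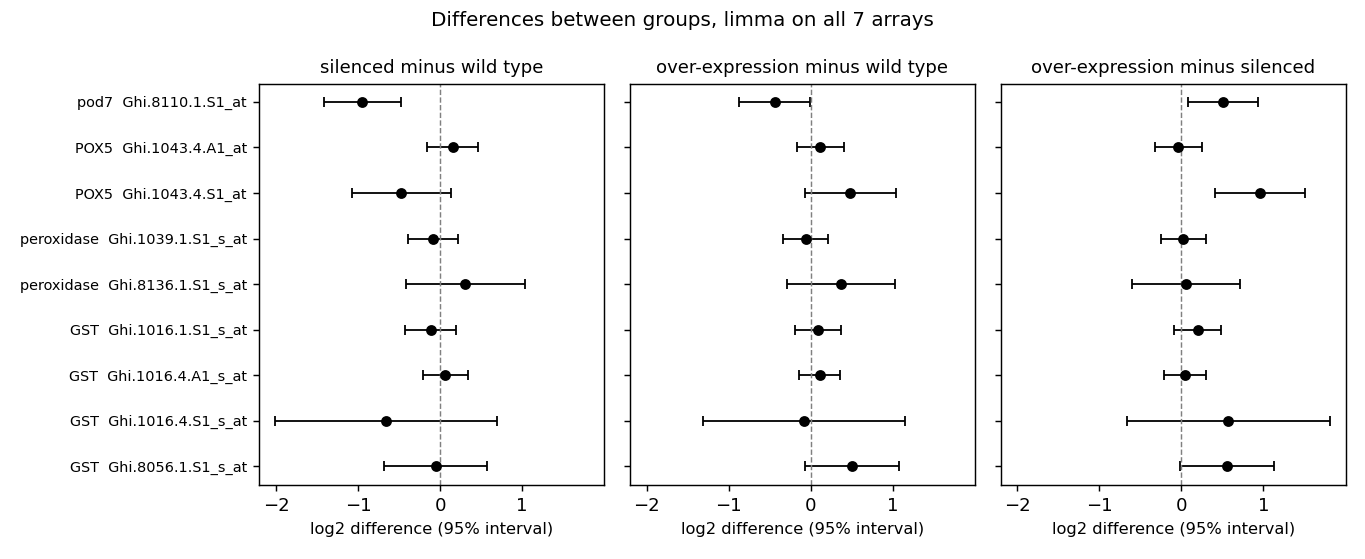
Log2 difference between groups (horizontal axis) for each member probe set (vertical axis) in the 3 comparisons; points are limma estimates from all 7 arrays and bars 95% intervals, not adjusted for the number of probe sets. The intervals of pod7 lie off 0 in all 3 panels and that of POX5 Ghi.1043.4.S1_at in the last, although 0 members passed after adjustment.

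For neither gene named peroxidase were the groups apart in any comparison. Ghi.1039.1.S1_s_at (LOC107905931) was bright and nearly flat, at 12.50 and 12.53 in wild type, 12.55 and 12.31 in silenced, and 12.53, 12.43 and 12.40 in over-expression ovules. All 7 arrays lay within 0.24 of each other, and the groups overlapped. Its SD over the arrays, 0.09, was larger than that of only 7.95% of all probe sets. The 95% intervals of its differences were -0.39 to 0.21 for silenced minus wild type, -0.34 to 0.21 for over-expression minus wild type and -0.25 to 0.30 for over-expression minus silenced. They leave out a 2-fold change each way.

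Ghi.8136.1.S1_s_at (LOC107951876) was dim and turned on 1 array. It read 3.57 on wild-type replicate 1 and 4.51 on wild-type replicate 2, and between 4.16 and 4.66 on the 5 transgenic arrays. The wild-type arrays enclosed both silenced arrays, and the gap of 0.94 within wild type was wider than that of 95.6% of probe sets. Against wild type the differences were 0.31 for silenced (SE 0.30, limma adjusted p = 0.655) and 0.37 for over-expression (SE 0.28, limma adjusted p = 0.610). They became -0.16 and -0.10 without wild-type replicate 1, and 0.78 and 0.84 without replicate 2. Between over-expression and silenced the difference was 0.06 (SE 0.28).

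Among the glutathione transferases, the bright probe set Ghi.8056.1.S1_s_at (LOC107948407) was lower on both silenced than on all over-expression arrays. It read 12.35 on both silenced arrays and 12.95, 12.75 and 13.01 on the over-expression arrays, with 11.97 and 12.84 in wild type. The wild-type arrays lay on either side of the silenced pair. The means were 12.90 ± 0.13 (SD, n = 3) in over-expression and 12.35 ± 0.01 (SD, n = 2) in silenced ovules. The difference was 0.55, or 1.47-fold (SE 0.24, 95% interval -0.02 to 1.12, limma adjusted p = 0.430). In the fit of the 5 transgenic arrays alone its adjusted p was 0.0863, and 238 of the 23977 probe sets were called there in place of 5.

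Against wild type, at 12.40 ± 0.62 (SD, n = 2), this GST depended on which array stood for wild type. For over-expression the difference was 0.50 (SE 0.24, limma adjusted p = 0.500). It was 0.06 without wild-type replicate 1 (limma adjusted p = 0.927), and 0.94 without wild-type replicate 2 (limma adjusted p = 0.0438), where 475 of all probe sets were called. For silenced minus wild type the difference was -0.05 (SE 0.27), with -0.49 against replicate 2 alone and 0.38 against replicate 1 alone. The fibre marker mean was likewise lower on wild-type replicate 1 (9.31) than on replicate 2 (10.03). Over the 7 arrays this GST correlated with that mean at r = 0.774, the highest r of all members. On over-expression replicate 2, where the marker mean was 9.27, this GST was at 12.75. The part of the markers was not tested.

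The 3 probe sets of the other GST gene, LOC107889738, gave little signal. Ghi.1016.1.S1_s_at read 2.69 and 2.64 in wild type, 2.48 and 2.63 in silenced, and 2.89, 2.64 and 2.73 in over-expression ovules. Ghi.1016.4.A1_s_at read 3.16 and 3.03, then 3.17 and 3.15, then 3.16, 3.16 and 3.29 in the same order. For Ghi.1016.1.S1_s_at the silenced arrays lay just below the others, by less than 0.01, and for Ghi.1016.4.A1_s_at the groups overlapped. Their differences lay between -0.11 and 0.20, with limma adjusted p from 0.578 to 0.918, at signals where the array resolves little.

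The third, Ghi.1016.4.S1_s_at, varied most of all members, with an SD over the 7 arrays of 0.68. It read 5.90 and 4.11 in wild type, 4.07 and 4.62 in silenced, and 4.60, 4.67 and 5.49 in over-expression ovules. The wild-type gap of 1.78 exceeded that of 99.1% of all probe sets, and all groups overlapped. The differences were -0.66 for silenced minus wild type (SE 0.57), -0.08 for over-expression minus wild type (SE 0.52) and 0.57 for over-expression minus silenced (SE 0.52). Silenced minus wild type was 0.23 without wild-type replicate 1 and -1.55 without replicate 2. The 3 probe sets of this gene correlated at r = 0.185 to 0.573 with each other over the 7 arrays, and each name ends in _s_at, the mark of a set that can read several related transcripts.

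**Figure D3:**
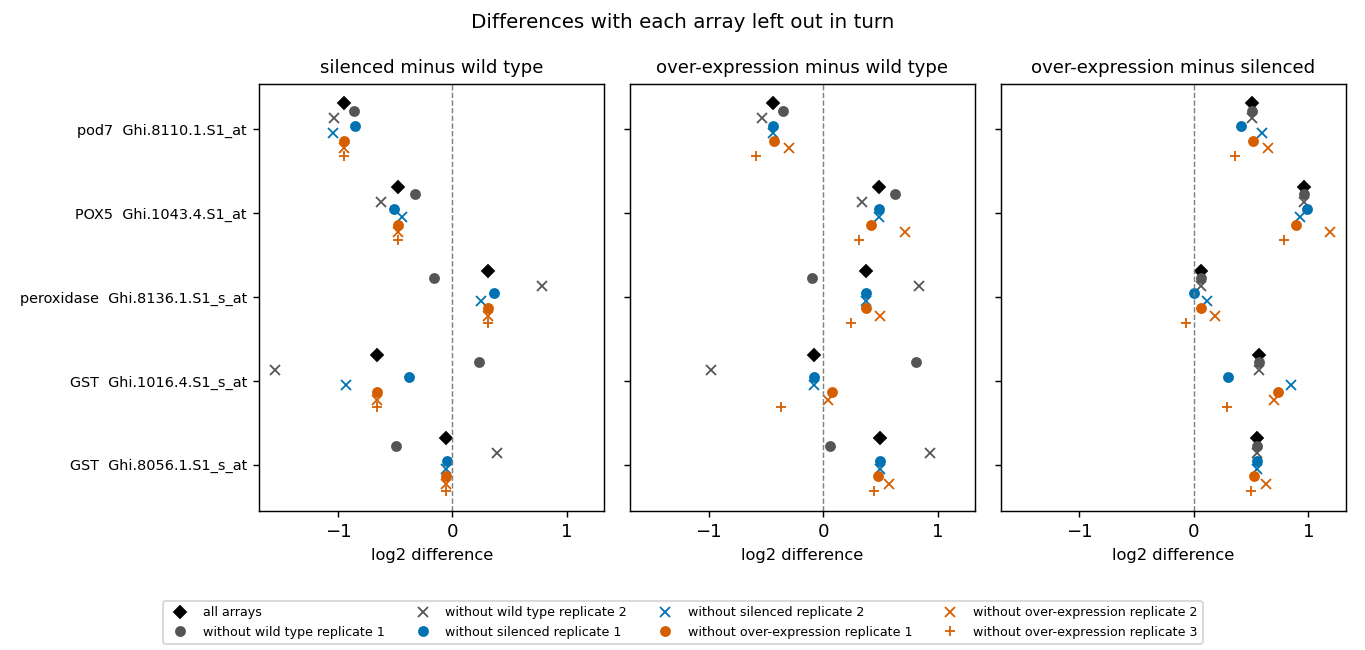
Log2 differences (horizontal axis) of 5 member probe sets in the 3 comparisons, with all arrays (diamonds) and with each array left out in turn. The pod7 values stay on one side of 0 in every panel, as they must where no pair of groups overlaps. Ghi.1016.4.S1_s_at and Ghi.8136.1.S1_s_at change side in both comparisons with wild type, depending on the wild-type array left out. So does Ghi.8056.1.S1_s_at in silenced minus wild type.

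Counted over members, the groups did not overlap for 3 of 9 member probe sets in silenced ovules against wild type, all 3 lower in silenced (pod7, POX5 Ghi.1043.4.S1_at and GST Ghi.1016.1.S1_s_at). Among all probe sets 21.8% were lower with no overlap, and 45.4% were apart either way. Between over-expression and wild type 1 of 9 was apart, pod7, and 9.81% of all probe sets were lower with no overlap and 24.3% apart either way. Between over-expression and silenced 4 of 9 were apart, all 4 higher in over-expression, where 17.8% of all probe sets were higher with no overlap and 33.9% apart either way. These were pod7, POX5 Ghi.1043.4.S1_at and the GST probe sets Ghi.1016.1.S1_s_at and Ghi.8056.1.S1_s_at. With groups of 2 and 3 arrays such gaps are common.

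The wider peroxidase family showed both directions as well. A further 7 probe sets, from 7 genes, carry pod or POX names: pod1, pod3, pod5, pod6, pod10, POX9 and POX10. Of these 0 passed in any comparison (limma, smallest adjusted p = 0.256), and 2, 0 and 0 had an unadjusted p under 0.05. Their median differences were 0.12, -0.04 and -0.04 in the 3 comparisons. Between silenced and wild type 4 lay above and 3 below, and the dim pod3, pod6 and pod10 are among these.

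POX10 had its lowest values in silenced ovules. It read 6.19 and 5.84 in wild type, 5.15 and 5.16 in silenced, and 5.66, 5.35 and 6.24 in over-expression ovules. The silenced arrays were below all others, and the other groups overlapped. Silenced minus wild type was -0.86 (SE 0.28, limma adjusted p = 0.256) and over-expression minus silenced 0.60 (SE 0.25, limma adjusted p = 0.416).

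The peroxidase gene pod5 had the opposite order against wild type. It read 5.52 and 5.46 in wild type, 6.18 and 6.19 in silenced, and 5.57, 6.30 and 5.63 in over-expression ovules. Every transgenic array lay above both wild-type arrays, and over-expression replicate 2 was the highest of all. Silenced minus wild type was 0.69 (SE 0.24, limma adjusted p = 0.277) and over-expression minus wild type 0.34 (SE 0.22, limma adjusted p = 0.566). The probe sets of pod3 and pod10 were near the floor, at 3.24 to 3.67 and 3.48 to 3.89, and that of pod6 read 3.77 to 4.59.

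**Figure D4:**
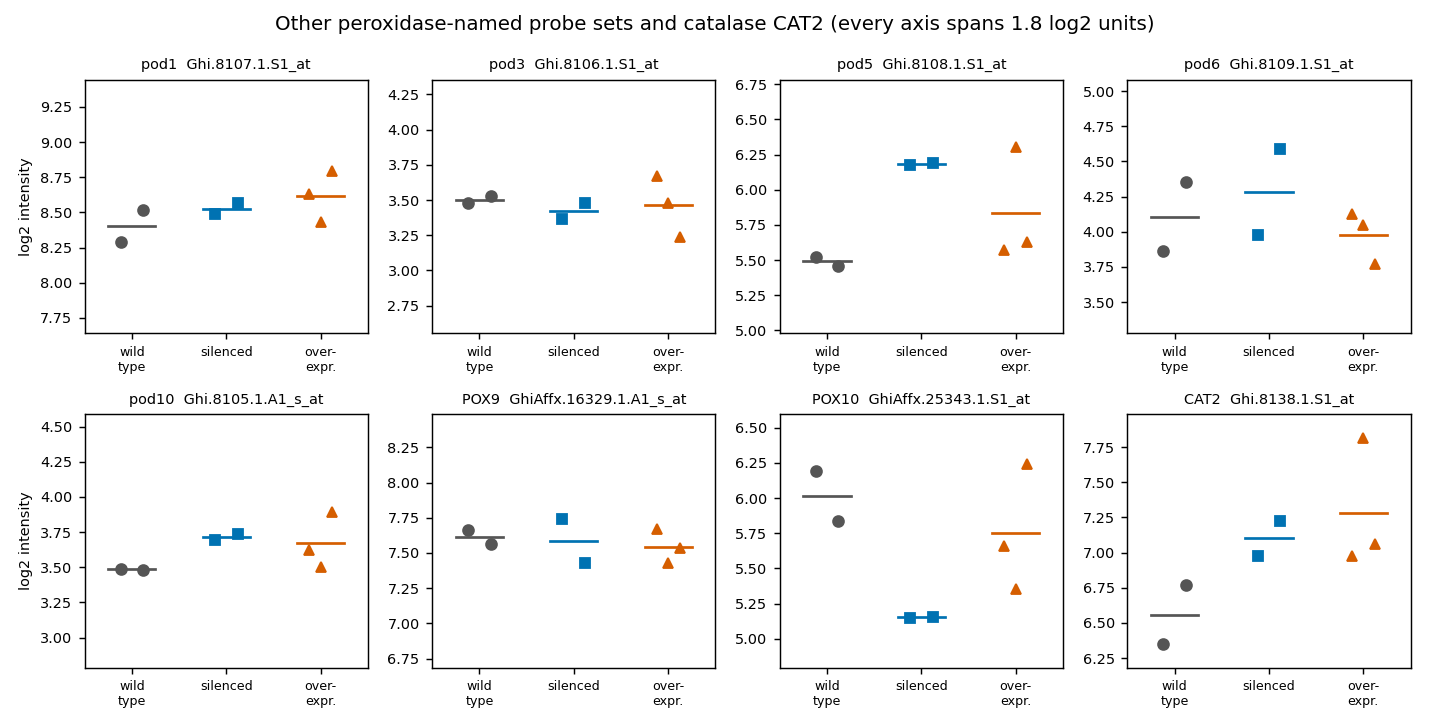
Log2 intensity (vertical axis, every panel to the same scale) of the 7 other peroxidase-named probe sets and of the catalase CAT2 in the 3 groups (horizontal axis). Each symbol is 1 array and each bar a group mean; POX10 is lowest and pod5 high on both silenced arrays, and wild type is lowest for CAT2.

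No other gene listed for handling reactive oxygen passed the test either. The list matched by the start of a name held 3 probe sets: the catalase CAT2, which breaks down hydrogen peroxide, the copper-zinc superoxide dismutase CSD2a and the dehydroascorbate reductase DHAR1. Of these, limma called 0 in any comparison, and 0, 1 and 0 had an unadjusted p under 0.05. CAT2 read 6.35 and 6.77 in wild type, 6.98 and 7.23 in silenced, and 6.98, 7.81 and 7.06 in over-expression ovules. All transgenic arrays lay above both wild-type arrays. The differences from wild type were 0.54 for silenced (SE 0.30, limma adjusted p = 0.441) and 0.73 for over-expression (SE 0.27, limma adjusted p = 0.456).

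CSD2a was lower in over-expression than in silenced ovules by a difference of -0.23 (SE 0.11, limma adjusted p = 0.461), with no overlap. With ascorbate peroxidases and the manganese and iron superoxide dismutases, whose names carry letters in front of APX or SOD and were added after the names were seen, the list held 8 probe sets from 7 genes. Of these 0 were called in any comparison, with medians of 0.04, -0.05 and -0.02. The manganese superoxide dismutase probe set Ghi.4230.1.S1_at read 10.60 and 10.72 in silenced ovules and 10.88 or more on the other arrays, a difference of -0.34 from wild type (SE 0.13, limma adjusted p = 0.301). The other probe set of that name, Ghi.4090.1.S1_at, did not separate the groups. It read 6.61 and 6.71 in silenced ovules, 6.67 and 7.11 in wild type, and 6.70 to 6.72 in over-expression ovules.

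The probe sets most like each member were sought among named genes of mean at least 6 and SD at least 0.3, by Pearson r over the 7 arrays. These were picked as the highest of 90 or 91, so the r values describe the arrays and carry no test. For pod7 the highest was EXPA4, an expansin, one of the proteins that loosen walls, at probe set Ghi.704.1.S1_at (r = 0.942, Spearman rho of 1). EXPA4 read 7.97 and 7.93 in wild type, 6.84 and 6.92 in silenced, and 7.87, 7.22 and 7.93 in over-expression ovules, so the order of the 7 arrays was the same for both. With the group means taken off, r was 0.838, and without the 2 arrays farthest from the EXPA4 median it was 0.855. Di19-1 (r = 0.826) and the ethylene response factor ERF3 (r = 0.822) followed. For ERF3, r was 0.396 without the 2 arrays farthest from its median.

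For POX5 Ghi.1043.4.S1_at the highest was another probe set of EXPA4, Ghi.704.1.A1_s_at (r = 0.937, and 0.930 with the group means taken off). It read 10.96 and 10.89 in wild type, 10.46 and 10.34 in silenced, and 11.19, 10.83 and 11.19 in over-expression ovules. CPR2 (r = 0.870) and HOX3 (r = 0.856), a homeodomain factor active in fibres and 1 of the fibre markers above, followed. For HOX3, r was 0.437 without the 2 arrays farthest from its median. For GST Ghi.8056.1.S1_s_at the highest were bnlghi6313 (r = 0.925), PAP10 (r = 0.875) and Aux2 (r = 0.838). bnlghi6313 was lowest on wild-type replicate 1, at 8.24, and highest on wild-type replicate 2, at 9.34.

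**Figure D5:**
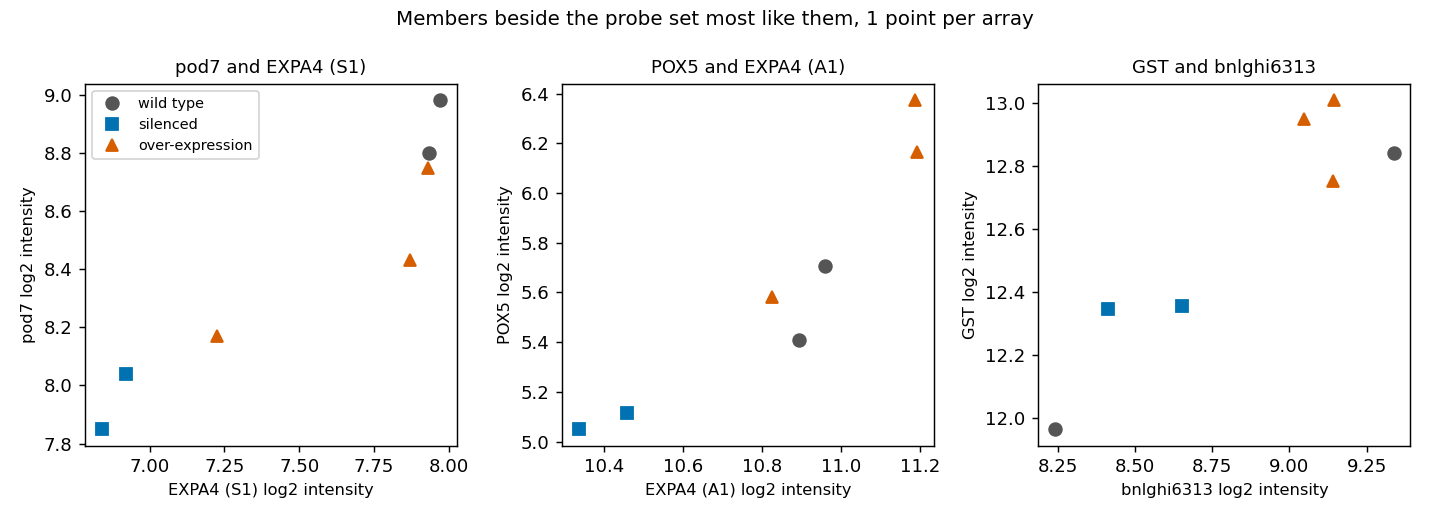
Log2 intensity of pod7, POX5 Ghi.1043.4.S1_at and GST Ghi.8056.1.S1_s_at (vertical axes) against that of the named probe set with the highest r (horizontal axes: EXPA4 S1, EXPA4 A1 and bnlghi6313), with 1 symbol per array. The silenced arrays sit at the low end for pod7 and POX5, and wild-type replicate 1 at the low end for GST.

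For peroxidase Ghi.8136.1.S1_s_at the highest were CPA-FAS-3 (r = 0.865), Aux2 (r = 0.858) and myb109 (r = 0.807). Without the 2 arrays farthest from the CPA-FAS-3 median, that r was 0.290. For GST Ghi.1016.4.S1_s_at they were the MPK3 probe sets Ghi.7954.2.S1_at (r = 0.721) and Ghi.7954.1.S1_s_at (r = 0.649), of a protein kinase gene, and pod7 (r = 0.627). For pod7, r was 0.101 without the 2 arrays farthest from its median. The second MPK3 probe set read 10.84 on wild-type replicate 1 and 9.76 on over-expression replicate 2, and 7.38 to 7.95 on the other arrays. The remaining 4 members had an SD under 0.3 and were not matched.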

How the data were processed

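The authors deposited 1 log2 intensity for each probe set and array. The submitters' processing notes name RMA, limma and R 2.7.1 without role or order, and no further step is recorded. RMA equalises the arrays and compresses low signals, so a global shift between groups cannot be seen. Of 24132 probe sets, 103 AFFX and 52 reporter controls were set apart and 23977 tested. Gene names came from the platform annotation (697 with 1 gene, 46 with several, 23234 with none listed), and RefSeq's gene table for Gossypium_hirsutum_v2.1 held all 697. No build is named for the array, so no coordinates are given, and no sequence was used here.

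The test was limma 3.58.1 (R 4.3.3, lmFit with 1 mean for each group over 7 arrays, eBayes with defaults, 4 residual degrees of freedom), two-sided, with Benjamini-Hochberg adjustment over all probe sets and a threshold of 0.05. The procedure was tested on simulated data. The number of arrays limits the precision. Groups came from the sample titles. The members and lists were chosen with earlier results of these data known. All members are named; of the wider lists, the 2 highest and 2 lowest moderated t per comparison, with the remaining names given as counts or in the plot. Lists could be matched by gene symbol and synonym only, since the tables used hold no gene products; list members beyond this rule were picked with their values known. The settings varied were a block for the replicate number, only the groups compared, a robust prior, an intensity trend, a minimum mean of 6, cyclic loess, median centring and leaving out each array. Deviations from group means of same-numbered arrays correlated between -0.305 and 0.148. In a group of 2 arrays the deviations mirror each other, so these values cannot decide whether the numbers mark pairs. The labels name no block, and the numbers were not taken as pairs.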

Additional observations from a re-analysis of the deposited data

How the results depend on the processing

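Over 360 member values under the 14 alternatives (each member and comparison, where the probe set was kept), 340 kept direction and side of the threshold, 1 passed it and 19 changed sign. Several alternatives cannot change a difference, such as the robust prior, the intensity trend or leaving out an array of the group not compared. The count of kept directions is therefore partly fixed beforehand and does not measure stability. No alternative gave a called member except 1, GST Ghi.8056.1.S1_s_at in over-expression minus wild type without wild-type replicate 2 (range of members called 0 to 1 when 1 array was left out). The cause of the other shifts was not tested; a left-out array leaves fewer samples, and a group left with 1 array borrows its spread from the others. For all probe sets, silenced minus wild type gave 7 calls with a robust prior and 0 to 73 with 1 array left out (73 without wild-type replicate 1, 35 without replicate 2). Over-expression minus wild type gave 0 with cyclic loess, the replicate block or only the groups compared, and 0 to 475 with 1 array left out. Over-expression minus silenced gave 0 calls with the replicate block, 9 with median centring, 238 with only the groups compared and 0 to 238 with 1 array left out (37 without over-expression replicate 2, and 0 without any other transgenic array). The arrays share only a number, and the replicate block called 0 members.

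GST Ghi.1016.4.A1_s_at (silenced minus wild type) gave -0.0376 and GST Ghi.1016.1.S1_s_at (over-expression minus wild type) -0.0306 under cyclic loess, and peroxidase Ghi.1039.1.S1_s_at (over-expression minus silenced) -0.0049. GST Ghi.8056.1.S1_s_at (silenced minus wild type) gave 0.0156 under median centring. Peroxidase Ghi.8136.1.S1_s_at (over-expression minus silenced) gave -0.0647 with the replicate block. With 1 array left out, silenced minus wild type ran from -0.21 to 0.0328 for Ghi.1039.1.S1_s_at, -0.16 to 0.78 for Ghi.8136.1.S1_s_at, -0.00077 to 0.13 for Ghi.1016.4.A1_s_at, -1.55 to 0.23 for Ghi.1016.4.S1_s_at and -0.49 to 0.38 for Ghi.8056.1.S1_s_at. Over-expression minus wild type ran from -0.10 to 0.84 for Ghi.8136.1.S1_s_at and -0.97 to 0.81 for Ghi.1016.4.S1_s_at. Over-expression minus silenced ran from -0.15 to 0.0779 for POX5 Ghi.1043.4.A1_at, -0.0948 to 0.15 for Ghi.1039.1.S1_s_at and -0.0647 to 0.19 for Ghi.8136.1.S1_s_at. Probe sets near the floor resolve little, and 6 of 9 members had a mean under 6.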

Other observations

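Exactly equal values on different arrays occur among the dim members. GST Ghi.1016.4.A1_s_at read the same value on 3 arrays, and POX5 Ghi.1043.4.A1_at and GST Ghi.1016.1.S1_s_at each read the same value on 2. Such repeats were found in 67.0% of the 3098 probe sets with a mean under 4.5 and in 29.5% of the 20879 others, and in 3 of the 4 members under 4.5 and 0 of the other 5. The SD of such a probe set within a group can therefore be small at the floor.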
